A study of Mus musculus with 4 samples.

Results

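The 35 genes described here serve protein folding and quality control in the endoplasmic reticulum (ER) and make up the core of the unfolded protein response (UPR). They were taken by name, as the UPR sensors, ER chaperones, folding enzymes, translocon parts and ER-associated degradation (ERAD) genes, from 53647 genes listed in the deposited count tables. All 35 were found by symbol through their Ensembl identifiers. In 34 of them the counts passed the filter on low counts, among 12972 genes tested. Derl3 did not pass it.

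Proteins that enter the secretory route are threaded into the ER by the Sec61 channel, folded by the HSP70 chaperone BiP and its partners, tied by disulfide isomerases and checked by lectin chaperones. Chains that fail to fold are carried back to the cytosol and degraded, which is ERAD. When unfolded chains build up, the membrane sensors IRE1, ATF6 and PERK signal to the nucleus, and the transcription factors XBP1 and ATF6 raise the genes of chaperones and ERAD. STING, the innate immune adaptor that uniSTING mimics, is itself a protein of the ER membrane.

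RNA was sequenced from 4T1 cells, a mouse mammary carcinoma line, labelled WT in genotype in both groups. The uniSTING group (2 libraries) was given mRNA for uniSTING, an engineered STING mimic, and the Mock group (2 libraries) was given mRNA for the fluorescent protein EGFP. The mRNA was carried either by a transfection reagent or by lipid nanoparticles. Which of them a library received is not labelled, nor are the dose and the time of harvest. All 4 libraries come from 1 cell line, and no label states that the libraries of a group came from separate cultures, so the p-values reflect the spread among these 4 libraries alone, and that spread may be technical.

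Total counts were 18843543 and 25071840 in the uniSTING libraries, and 17502694 and 22039546 in the Mock libraries. The variance between the libraries of a group was 1.52 times (uniSTING) and 1.47 times (Mock) what counting alone gives, and 14.4 to 17.1 times between groups. All 6 epithelial markers had counts in every library, with summed levels of 4728 and 4736 CPM (counts scaled by library size, as given with the methods) in uniSTING and 4614 and 4678 CPM in Mock. Singly they went both ways. Cdh1 was 1.15-fold lower in uniSTING (545 against 627 CPM, adjusted p = 2.79e-06 by edgeR). Epcam, Krt7, Krt8 and Krt14 were 1.11-fold, 1.04-fold, 1.04-fold and 1.14-fold higher, each with an adjusted p under 0.05, and Krt18 was not called. Markers of other cell types were low, and they too were not level between the groups. The 6 leukocyte markers summed to 13 and 11.6 CPM in uniSTING and 10.1 and 7.42 CPM in Mock, the 5 fibroblast markers to 12.8 and 9.56 CPM in uniSTING and 9.87 and 7.65 CPM in Mock, and the 3 endothelial markers to 1.07 and 0.161 CPM in uniSTING and 1.76 and 0.226 CPM in Mock. Most of the leukocyte sum was Cd68, which was 1.44-fold higher in uniSTING (10.6 against 7.38 CPM, adjusted p = 0.0065 by edgeR), and most of the fibroblast sum was Pdgfra, which was 1.29-fold higher (8.74 against 6.76 CPM, adjusted p = 0.0243). The leukocyte gene Itgam was at 0 throughout. The leukocyte gene Ptprc and the fibroblast genes Col3a1 and Dcn had counts in the replicate 1 libraries (21, 19 and 13 for Col3a1, Ptprc and Dcn in uniSTING, against 6, 8 and 7 in Mock) and none in the replicate 2 libraries. The part of these marker genes in the results was not tested. Log2 fold changes between the groups fell with the exon length of the gene, with a Spearman rho of -0.49 over 7970 genes of at least 16 CPM. That rho was -0.49 and -0.48 within replicates 1 and 2, and 0.02 and 0.03 between the libraries of the uniSTING and of the Mock group. For this reason, many differences are also given relative to the trend at a gene's own exon length.

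Genes of the folding machinery were mostly a little higher in uniSTING cells, and Ern1, the gene of the UPR sensor IRE1, was lower. The sensor gene Atf6 was also lower, but its call was lost with the length trend removed (adjusted p = 0.105 by edgeR). With length and GC trends removed it passed at -0.10 (adjusted p = 0.0226 by edgeR). By edgeR's quasi-likelihood test with Benjamini-Hochberg adjustment over all genes tested, 20 of the 34 genes rose and 6 fell, while 8 did not pass. The shares were 58.8% higher and 17.6% lower (76.5% called) among these 34, against 24.9% higher and 25.4% lower (50.2% called) among all genes tested. Among genes of at least 16 CPM, 19 of 31 rose and 6 fell, against 30.3% higher and 34.0% lower (64.3% called) of 7970. The changes were small. The median log2 fold change was 0.11 over the 34 genes and 0.006 over all genes tested, and the values ran from -0.50 (Ern1) to 0.59 (Ero1l). Of the 20 that rose, 17 did so by less than 1.3-fold. Ero1l was the 1 gene that rose at least 1.5-fold and none fell by that much, against 5.19% and 4.52% of all genes tested. Relative to genes of like exon length the median was 0.09, against 0.004 over all genes tested, with 25 of the 34 above the trend and 9 below it. In all genes tested, 50.6% lay above the trend. With the length trend removed from the counts before the test, 14 of the 34 rose and 4 fell, against 3039 genes higher and 2881 lower in all. With DESeq2 11 of the 34 rose and 4 fell, against 2347 genes higher and 2591 lower in all. Among the 34, DESeq2 did not make the calls of Atf6b, Xbp1, Hyou1, Dnajb9, Dnajb11, Dnajc3, Creld2, Pdia4, Pdia6, Sel1l and Derl1. Their adjusted p by DESeq2 lay between 0.0673 (Creld2) and 0.172 (Hyou1).

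Both uniSTING libraries lay above both Mock libraries for 21 of the 34 genes and below them for 8. Over all genes tested these shares were 37.8% and 37.3%. Together the 34 genes tested took 0.873% and 0.874% of all counts in the uniSTING libraries and 0.796% and 0.785% in the Mock libraries. In bulk RNA such as this, a change in the number of cells that use a gene and a change in RNA per cell cannot be told apart. The plot of fold changes by role gives every gene with its interval.

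**Figure D1:**
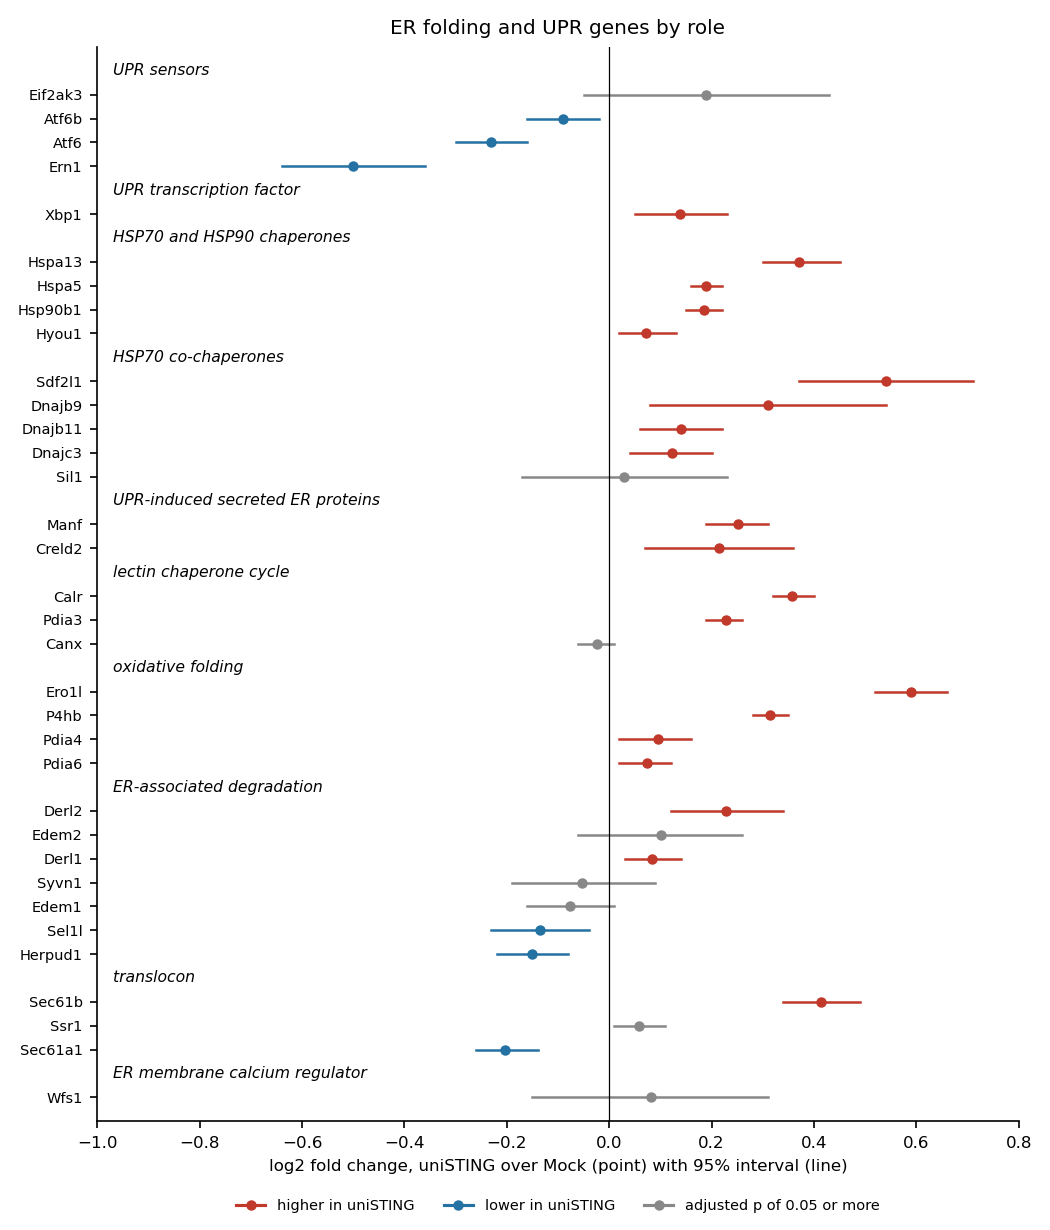
Log2 fold change of uniSTING over Mock for the 34 genes tested, grouped by role, with points for the edgeR estimate and bars for its 95% interval. The HSP70 and HSP90 chaperones and the oxidative folding genes lie right of 0, and 3 of the 4 sensor genes lie left of it.

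The levels spanned a wide range. Per kilobase of exon, the most abundant of the 35 was Hspa5, which encodes BiP, at 482 CPM per kb in uniSTING and 423 CPM per kb in Mock. It was followed in Mock by the disulfide isomerase genes P4hb (356 and 287 CPM per kb in uniSTING and Mock) and Pdia3 (232 and 198), then by Calr (244 and 190.5). Calr and Pdia3 stood in the opposite order in the uniSTING libraries. Next came Hsp90b1 (196 and 172 CPM per kb) and Canx (154 and 156). At the low end were Wfs1 (3.12 and 2.97 CPM per kb), Eif2ak3 (2.63 and 2.31) and Derl3 (0.114 and 0.0398). These top 6 genes stood far above the sensors, of which Atf6b was the highest at 37.5 and 40 CPM per kb. Other chaperone genes did not, since Hyou1 (30.5 and 29.1 CPM per kb) lay below Atf6b, and Dnajb9 (5.66 and 4.55) and Sil1 (5.28 and 5.2) lay below Atf6 as well (11.4 and 13.4). Such an order depends on the deposited exon lengths. In CPM, Hyou1 (221 in uniSTING and 210.2 in Mock) stood above Atf6b (103 and 110.3). Neighbours such as Wfs1 and Eif2ak3 differed by less than 1 CPM per kb in either group.

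**Figure D2:**
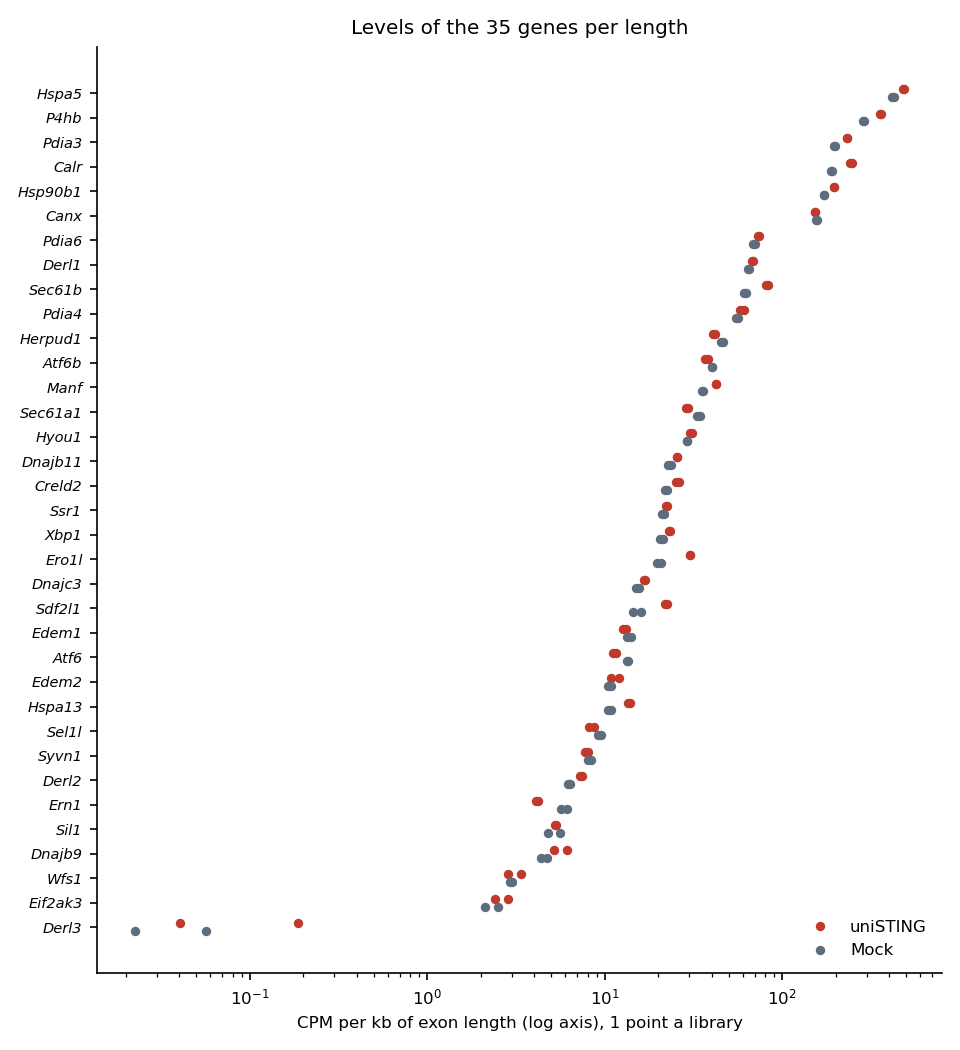
CPM per kilobase of exon (log axis) for each of the 35 genes, ordered by the Mock level, with 1 point per library for uniSTING and Mock. Hspa5 is at the top near 482 CPM per kb in uniSTING. Derl3 is at the bottom, with points at 0.187 and 0.0403 in uniSTING and 0.0569 and 0.0227 in Mock.

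The UPR is known to act on some of these genes through the ER stress response element (ERSE), which is CCAAT, 9 bases of any kind and CCACG. NF-Y binds its first letters, and ATF6 and XBP1 bind its last. Promoter windows of 300 bases (250 before and 50 after the transcription start, RefSeq, GRCm38.p6) were searched on both strands for this motif, for ERSE-II (ATTGG, 1 base of any kind and CCACG) and for the XBP1 element TGACGTGG. ERSE and ERSE-II share their 5-base parts on opposite strands or at another spacing, and no gene of the 28 held an exact match to both. Windows were found for 28 of the 35 genes, 29 windows in all. An exact ERSE stood in 9 of these 29 windows (31%) and in 39 of 32851 RefSeq windows (0.119%). An exact ERSE-II stood in 2 of the 29 (6.9%) and in 12 of all windows (0.0365%). TGACGTGG stood in none of the 29 and in 222 of all windows (0.676%). With up to 1 mismatch in the 10 fixed letters, ERSE stood in 14 of the 29 windows (48.3%) and in 1.5% of all windows. The stretches that hold the exact matches upstream of the start are shown because the UPR is known to act through such elements. Most of the windows held no exact match. They are written 5′ to 3′ on the gene's strand, with the fixed letters of the motif in capitals. CGTGG before ATTGG marks a motif in the opposite orientation.
Hspa5, chr2:34772017-34772051, plus strand: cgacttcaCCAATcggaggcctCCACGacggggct
Hsp90b1, chr10:86705630-86705664, minus strand: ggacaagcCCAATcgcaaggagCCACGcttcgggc
Hsp90b1, chr10:86705525-86705559, minus strand: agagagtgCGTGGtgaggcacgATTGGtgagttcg
Calr, chr8:84847067-84847101, minus strand: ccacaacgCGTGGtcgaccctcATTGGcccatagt
Canx, chr11:50325792-50325826, minus strand: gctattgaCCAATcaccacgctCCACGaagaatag
Creld2, chr15:88819512-88819546, plus strand: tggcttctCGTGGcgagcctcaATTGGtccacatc
Dnajc3, chr14:118937819-118937853, plus strand: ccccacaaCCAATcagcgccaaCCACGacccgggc
Pdia6, chr12:17266483-17266517, plus strand: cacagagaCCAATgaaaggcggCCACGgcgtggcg
Syvn1, chr19:6046524-6046558, plus strand: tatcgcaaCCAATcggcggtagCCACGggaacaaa
Derl3, chr10:75893234-75893268, plus strand: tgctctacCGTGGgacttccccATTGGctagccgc
Herpud1 (ERSE-II), chr8:94386369-94386395, plus strand: gggcgctgATTGGgCCACGttggacac

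A match is a description and not a bound site. The motif ended 46 bases before the start in Hspa5, 25 in Syvn1 and 41 in Herpud1, and between 79 and 193 bases before it in the others shown. Of the 8 tested genes with an exact ERSE, 6 rose (Calr, Creld2, Dnajc3, Hsp90b1, Hspa5 and Pdia6), none fell, and Canx and Syvn1 did not pass, with a median log2 fold change of 0.15. Of the 17 tested genes with a window but without an exact ERSE or ERSE-II, Derl2, Pdia3, Pdia4 and Sel1l held an ERSE with 1 mismatch. Among the 17, 9 rose, 3 fell and 5 did not pass, with a median of 0.14. These medians lay close together. Of 28 other genes with an exact ERSE, 8 were tested, of which none rose and 2 fell (median -0.15). Over all genes tested, 24.9% were higher and 25.4% lower. These motif groups are small, and differences between them were not tested. The genes with ERSE-II went opposite ways, with Dnajb11 up and Herpud1 down.

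Among the sensors, Ern1, Atf6 and Atf6b fell and Eif2ak3 did not pass. Ern1 (ENSMUSG00000020715, GRCm39 chr11:106285476-106378678) encodes IRE1α, the kinase and RNase that splices Xbp1 mRNA. It had 34.3 and 33.7 CPM in the uniSTING libraries, against 49.8 and 46.5 CPM in the Mock libraries. All uniSTING values were below all Mock values, a 1.41-fold decrease (log2 fold change -0.50 ± 0.06 SE, adjusted p = 7.75e-05), and Ern1 was 0.37 below the trend of its exon length (8.17 kb) on the log2 scale. Atf6, the membrane-bound factor that is cut in the Golgi, had 103 and 107 CPM in uniSTING and 125 and 123 CPM in Mock (log2 fold change -0.23 ± 0.03, adjusted p = 0.000115). With 9.23 kb of exon, Atf6 lay 0.07 below the trend, and with the length trend removed the call was lost (adjusted p = 0.105). With length and GC trends removed Atf6 passed (-0.10, adjusted p = 0.0226). For its relative Atf6b the values were 101 and 106 CPM in uniSTING and 110.4 and 110.2 CPM in Mock, a log2 fold change of -0.09 ± 0.03 (adjusted p = 0.0412). The Atf6b estimate was -0.05 without uniSTING replicate 1, -0.13 without uniSTING replicate 2, -0.10 without Mock replicate 1 and -0.09 without Mock replicate 2. The call was lost without uniSTING replicate 1, and also without either Mock replicate, where the estimate hardly moved. It was also lost without the low count filter (adjusted p = 0.0505), with limma-voom (0.0549) and with length and GC trends removed (-0.02, adjusted p = 0.699), while with the length trend alone removed it held at -0.17. Eif2ak3, which encodes PERK, had 17.2 and 14.5 CPM in uniSTING and 15.1 and 12.7 CPM in Mock, with overlapping groups (log2 fold change 0.19, 95% interval -0.05 to 0.43, adjusted p = 0.175). Without uniSTING replicate 2 it passed at 0.31 (adjusted p = 0.0386). The Ern1 to Eif2ak3 ratio of CPM, not scaled by exon length, was 1.99 and 2.32 in the uniSTING libraries and 3.3 and 3.65 in the Mock libraries. Per kilobase of exon, Ern1 stood at 4.16 CPM in uniSTING and 5.89 CPM in Mock, and Eif2ak3 at 2.63 and 2.31 CPM.

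Xbp1, the transcription factor downstream of IRE1, had 75.5 and 74.8 CPM in uniSTING and 69.6 and 67 CPM in Mock. The groups did not overlap, and the rise of 1.1-fold passed (log2 fold change 0.14 ± 0.04, adjusted p = 0.0124), but not without Mock replicate 2 (0.11, adjusted p = 0.166), with the length trend removed (adjusted p = 0.0895) or with DESeq2 (adjusted p = 0.0872). With length and GC trends removed Xbp1 passed (0.13, adjusted p = 0.0245 by edgeR). Counts per gene do not separate spliced from unspliced Xbp1 mRNA, so IRE1 output was not measured here.

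All 4 chaperones of the HSP70 and HSP90 families rose. Hspa5 (ENSMUSG00000026864, GRCm39 chr2:34661982-34667559), the main ER chaperone and the usual readout of the UPR, had 2036 and 2041 CPM in uniSTING and 1809 and 1769.6 CPM in Mock. The libraries of a group lay close together, and the difference was 1.14-fold (log2 fold change 0.19 ± 0.01, adjusted p = 7.78e-07; also 0.19 relative to exon length). Hsp90b1, which encodes GRP94, had 789.6 and 788 CPM in uniSTING and 698 and 688 CPM in Mock, also a 1.14-fold rise (log2 fold change 0.19 ± 0.02, adjusted p = 3.08e-06), which shrank to 0.07 on the log2 scale with length and GC trends removed (adjusted p = 0.00368). The ER HSP70 relative Hspa13 rose most of the 4, with 93.1 and 94.6 CPM in uniSTING and 73.8 and 71.6 CPM in Mock (1.29-fold, log2 fold change 0.37 ± 0.03, adjusted p = 5.85e-06). It stood 0.46 above the trend of its exon length. Hyou1, the nucleotide exchange factor of BiP, had 218 and 224 CPM in uniSTING and 211 and 209 CPM in Mock, a rise of 1.05-fold (adjusted p = 0.0323). The Hyou1 call was lost without uniSTING replicate 2 (adjusted p = 0.274), without Mock replicate 1 (0.113), without Mock replicate 2 (0.133) and without the low count filter (0.0639), while its log2 value stayed between 0.05 and 0.07 in these fits and was larger with the length trend removed (0.18, adjusted p = 0.000189).

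Of the co-chaperones of BiP, 4 rose and Sil1 did not pass. Sdf2l1, an ER protein that works with BiP and ERdj3, was at 24.2 and 24.7 CPM in uniSTING and 17.7 and 16.1 CPM in Mock. It was second only to Ero1l among the 34 genes, with a 1.46-fold rise (log2 fold change 0.54 ± 0.08, adjusted p = 0.000137), and 0.31 above the trend for its short exon length (1.11 kb). Dnajb9, which encodes ERdj4 and is known to restrain IRE1, had 15.6 and 13.2 CPM in uniSTING and 12 and 11.2 CPM in Mock (1.24-fold, adjusted p = 0.0274). It did not pass without uniSTING replicate 1 (0.19, adjusted p = 0.197) or without Mock replicate 2 (0.25, adjusted p = 0.163), nor with the length trend removed (0.21, adjusted p = 0.119) or length and GC trends removed (0.08, adjusted p = 0.549). Dnajb11, which encodes ERdj3, averaged 82.1 ± 0.0499 CPM in uniSTING and 74.7 ± 2.35 CPM in Mock (SD, n = 2 each; 1.1-fold, adjusted p = 0.00864 by edgeR), and was lost without Mock replicate 2 (adjusted p = 0.155), with the length trend removed (0.09, adjusted p = 0.075) and with length and GC trends removed (0.10, adjusted p = 0.0528). Dnajc3, which encodes p58IPK, a known inhibitor of PERK, averaged 85.7 ± 0.807 CPM in uniSTING and 78.7 ± 2.03 CPM in Mock (1.09-fold, adjusted p = 0.0136 by edgeR), and was lost without Mock replicate 1 (adjusted p = 0.123) and with length and GC trends removed (0.07, adjusted p = 0.112). Sil1, the other nucleotide exchange factor of BiP, had overlapping values of 17.9 and 18.3 CPM in uniSTING and 19.3 and 16.4 CPM in Mock (log2 fold change 0.03, 95% interval -0.17 to 0.23).

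Creld2 and Manf encode small ER proteins that can be secreted and are known as UPR targets. Manf, a trophic factor, had 149.9 and 149 CPM in uniSTING and 125 and 126 CPM in Mock, a rise of 1.19-fold (log2 fold change 0.25 ± 0.03, adjusted p = 1.82e-05; 0.22 relative to exon length). For Creld2 the values were 34.4 and 35.7 CPM in uniSTING and 29.9 and 30.5 CPM in Mock (1.16-fold, log2 fold change 0.21 ± 0.07, adjusted p = 0.0187). The groups of both genes stood apart, but Creld2 lay at 0.00 relative to the trend of its exon length (1.37 kb), and its call was lost with that trend removed (adjusted p = 0.979), with length and GC trends removed (0.05, adjusted p = 0.539), without uniSTING replicate 2 (adjusted p = 0.0869) and without Mock replicate 1 (adjusted p = 0.115).

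The lectin chaperones calreticulin and calnexin bind the same sugar chains on new glycoproteins, the first in the ER lumen and the second in the membrane, and pass their clients to the isomerase encoded by Pdia3 (ERp57). Calr (ENSMUSG00000003814, GRCm39 chr8:85568479-85573563) had 697 and 708 CPM in uniSTING, against 545 and 553 CPM in Mock (1.28-fold, log2 fold change 0.36 ± 0.02, adjusted p = 4.13e-08; 0.28 relative to exon length). Pdia3 had 725 and 729 CPM in uniSTING and 619.6 and 622 CPM in Mock (1.17-fold, log2 fold change 0.23 ± 0.02, adjusted p = 6.19e-07; 0.17 relative to exon length). Canx (ENSMUSG00000020368, GRCm39 chr11:50184788-50216500) did not share this, with 724 and 720.4 CPM in uniSTING and 737 and 730.4 CPM in Mock. Its groups did not overlap, yet the log2 fold change of -0.02 did not pass (95% interval -0.06 to 0.01, adjusted p = 0.257). With length and GC trends removed, Canx passed as lower (-0.11, adjusted p = 0.000257). The Calr to Canx ratio of CPM was 0.963 and 0.983 in the uniSTING libraries and 0.739 and 0.757 in the Mock libraries.

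All 4 genes of oxidative folding rose. Ero1l (Ero1a in newer tables; ENSMUSG00000021831, GRCm39 chr14:45520544-45556228), the oxidase that recharges disulfide isomerases, had 161 and 160.1 CPM in uniSTING and 110 and 103 CPM in Mock. The rise of 1.5-fold (log2 fold change 0.59 ± 0.03, adjusted p = 1.22e-07) led the 34 genes, and it was 0.63 above the trend of its exon length (5.29 kb). Among all genes tested, 981 (7.56%) rose more. P4hb (ENSMUSG00000025130, GRCm39 chr11:120451124-120464079), the main protein disulfide isomerase, had 1023 and 1016 CPM in uniSTING and 828 and 812 CPM in Mock (1.24-fold, log2 fold change 0.31 ± 0.02, adjusted p = 4.62e-08; 0.24 relative to exon length). The other isomerase genes moved less. Pdia6 averaged 275 ± 2.16 CPM in uniSTING and 261 ± 4.54 CPM in Mock (SD, n = 2 each; 1.05-fold, adjusted p = 0.0194 by edgeR), and was lost without uniSTING replicate 1 (adjusted p = 0.0538), without Mock replicate 1 (adjusted p = 0.183), with the length trend removed (0.05, adjusted p = 0.0974) and with length and GC trends removed (0.05, adjusted p = 0.0973). Pdia4 averaged 142 ± 4.89 CPM in uniSTING and 133 ± 2.07 CPM in Mock (1.07-fold, adjusted p = 0.0281 by edgeR). Its call was lost without uniSTING replicate 2 (adjusted p = 0.291), Mock replicate 1 (0.178) or Mock replicate 2 (0.0537), and its direction turned with the length trend removed (-0.02, adjusted p = 0.713) and with length and GC trends removed (-0.03, adjusted p = 0.487).

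**Figure D3:**
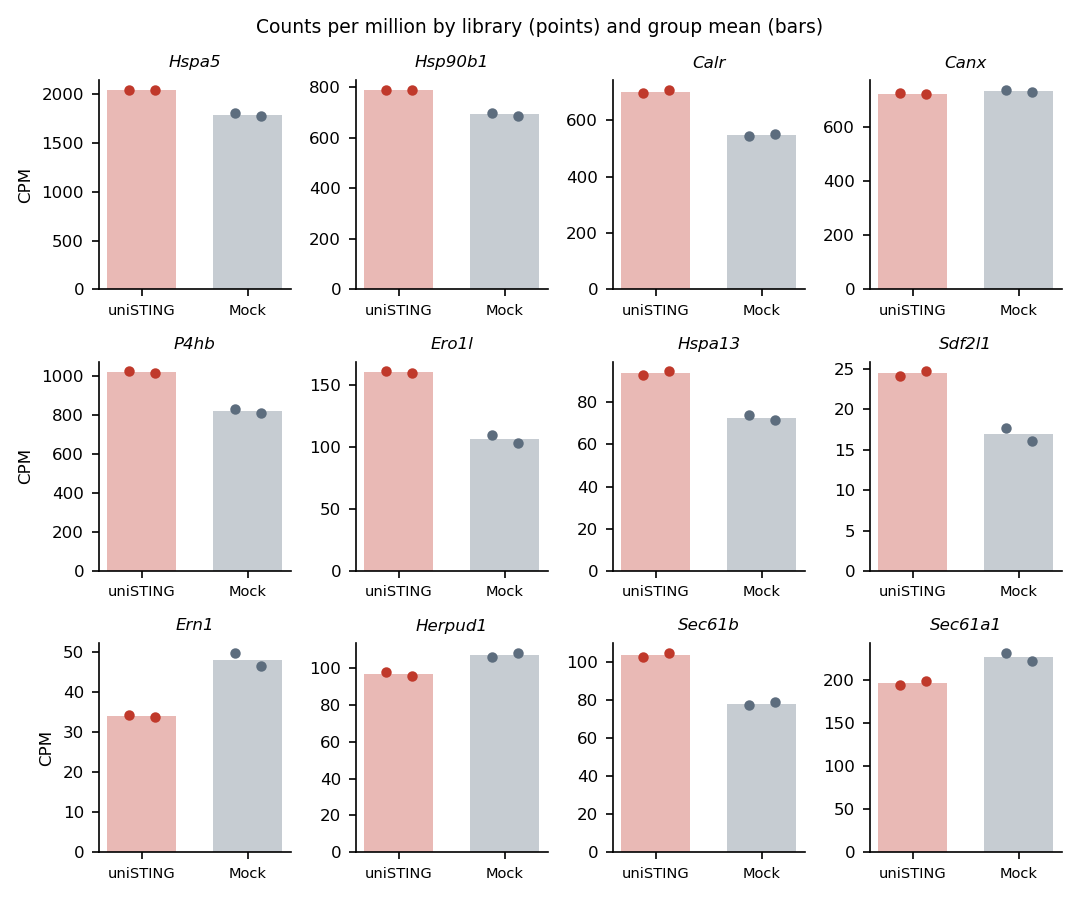
CPM in each of the 4 libraries (points) for chaperone, folding, sensor, ERAD and translocon genes named in the text, uniSTING left of Mock in each panel, with bars at each group's mean and axes from 0. The uniSTING points of Ero1l and Calr lie above the Mock points, those of Ern1 below them.

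The ERAD genes had no common direction. Among the 7 with enough counts, 2 rose and 2 fell, each near the share over all genes tested (24.9% higher and 25.4% lower). Another 3 did not pass. The median log2 fold change of the 7 was -0.05 (0.01 relative to exon length). Herpud1 (ENSMUSG00000031770, GRCm39 chr8:95113066-95122005), the membrane protein that gathers the ERAD complex and a known target of the UPR, had 97.8 and 95.5 CPM in uniSTING and 106 and 108 CPM in Mock. It was 1.11-fold lower (log2 fold change -0.15 ± 0.03, adjusted p = 0.00252) and 0.27 below the trend of its exon length. Derl2, a derlin of the retrotranslocation channel, had 60 and 58.6 CPM in uniSTING and 49.6 and 51.4 CPM in Mock (1.17-fold higher, adjusted p = 0.0031). These 2 genes kept their calls in all 12 alternative settings. Derl1 averaged 227 ± 2.73 CPM in uniSTING and 214 ± 1.91 CPM in Mock (SD, n = 2 each; 1.06-fold, adjusted p = 0.0129 by edgeR), and was lost without uniSTING replicate 2 (adjusted p = 0.101), without Mock replicate 2 (adjusted p = 0.0802), with the length trend removed (0.04, adjusted p = 0.222) and with length and GC trends removed (0.04, adjusted p = 0.198). Sel1l and Syvn1 encode the adaptor and the ubiquitin ligase of the HRD1 complex. Sel1l was lower at 70.2 and 74.8 CPM in uniSTING against 78.2 and 81.2 CPM in Mock (log2 fold change -0.14 ± 0.04, adjusted p = 0.0201). The Sel1l call was lost without uniSTING replicate 1 (adjusted p = 0.138), without Mock replicate 2 (adjusted p = 0.189) and with the length trend removed (0.01, adjusted p = 0.881) or length and GC trends removed (adjusted p = 0.965). Not past the test were Syvn1 (log2 fold change -0.05, 95% interval -0.19 to 0.09) and the mannosidase-like genes Edem1 (-0.08, -0.16 to 0.01) and Edem2 (0.10, -0.06 to 0.26), which mark glycoproteins for ERAD. Derl3 had 7 and 2 counts in uniSTING and 2 and 1 in Mock, a ratio of 2.73 with an exact 95% interval of 0.682 to 15.7 for counting error only, so at this depth no difference could be seen.

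Genes of the translocon were split. Sec61b (ENSMUSG00000053317, GRCm39 chr4:47474658-47483242), the small β subunit of the channel, had 103 and 105 CPM in uniSTING and 77.4 and 79.2 CPM in Mock (1.33-fold, log2 fold change 0.41 ± 0.03, adjusted p = 1.85e-06). Sec61a1, the pore subunit, had 194 and 199 CPM in uniSTING and 231 and 222 CPM in Mock (1.15-fold lower, log2 fold change -0.20 ± 0.03, adjusted p = 0.000107). The subunits of 1 channel thus went opposite ways, and the Sec61b to Sec61a1 ratio of CPM was 0.533 and 0.53 in the uniSTING libraries, against 0.336 and 0.357 in the Mock libraries. Sec61b has 1.27 kb of exon and stood 0.19 above the trend, while Sec61a1 stood 0.11 below it; with length and GC trends removed, Sec61a1 did not pass (-0.07, adjusted p = 0.0701). Ssr1, which encodes the α subunit of the translocon-associated TRAP complex, averaged 232 ± 0.881 CPM in uniSTING and 222 ± 4.01 CPM in Mock (log2 fold change 0.06, adjusted p = 0.062 by edgeR). It passed with a filter of 1 CPM (adjusted p = 0.0477) and with the length trend removed (0.25, adjusted p = 1.29e-05). Wfs1, an ER membrane protein of calcium balance, had 10.8 and 12.8 CPM in uniSTING and 11.3 and 11.1 CPM in Mock (log2 fold change 0.08, 95% interval -0.15 to 0.31).

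The genes were also set by where their proteins sit, a grouping made after the values were seen, so it is a description and not a test. Of 17 genes for soluble proteins of the ER lumen, 16 rose, none fell and Sil1 did not pass, with a median log2 fold change of 0.21. The mannosidase-like genes Edem1 and Edem2 and the nuclear factor gene Xbp1 were set in neither class. Edem1 and Edem2 also act in the lumen and did not pass, and counted with the luminal genes they give 16 of 19 higher and a median of 0.19. Of 14 tested genes for membrane-spanning proteins, 3 rose (Sec61b, Derl1 and Derl2), 6 fell (Ern1, Atf6, Atf6b, Herpud1, Sel1l and Sec61a1) and 5 did not pass, with a median of -0.04. Over all genes tested, 24.9% were higher and 25.4% lower, and among genes of at least 16 CPM 30.3% were higher and 34.0% lower. The luminal genes were also shorter, at a median of 3.44 kb of exon against 5.44 kb for the membrane genes. Relative to genes of like exon length the medians were 0.18 and 0.00, with 15 of the 17 luminal genes and 7 of the 14 membrane genes above the trend. Of the 17 luminal genes, 11 rose with the length trend removed, 10 with length and GC trends removed and 9 with DESeq2, and between 11 and 14 with 1 library left out. None of the luminal genes fell in any of these fits, which reuse the same 4 libraries. In all, 3039 genes were higher with the length trend removed, 2846 with length and GC trends removed and 2347 with DESeq2. The other pathway genes described below were not grouped this way, so whether the split holds among them was not tested. Their translocation, signal peptidase and oligosaccharyltransferase list, which holds further channel and TRAP subunits, had 18 of 26 tested genes up and 2 down. The other folding factors had 14 of 40 up and 6 down.

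**Figure D4:**
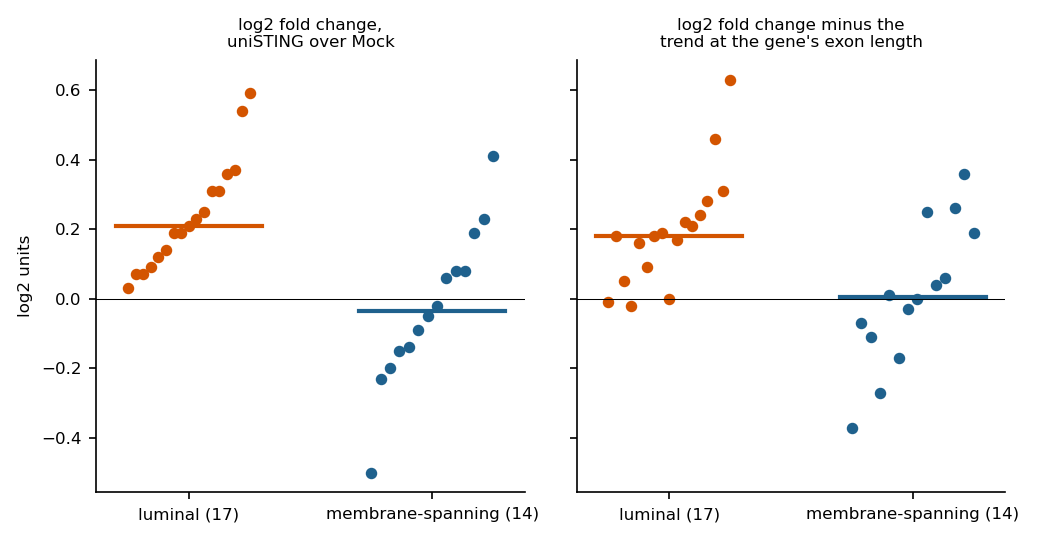
Log2 fold change of uniSTING over Mock for genes of luminal and of membrane-spanning proteins, as estimated and relative to the trend of exon length, with 1 point per gene and a line at the median. The luminal medians are 0.21 and 0.18, and the membrane medians are -0.04 and 0.00.

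Over the 34 genes the Spearman rho of log2 fold change with exon length was -0.41, a description over genes that share 4 libraries. Genes of like exon length still differed: Hspa13 (6.83 kb) and Derl2 (8.05 kb) stood 0.46 and 0.36 above the trend and Ern1 (8.17 kb) stood 0.37 below it. The trend is shown in the plot of fold change against exon length.

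**Figure D5:**
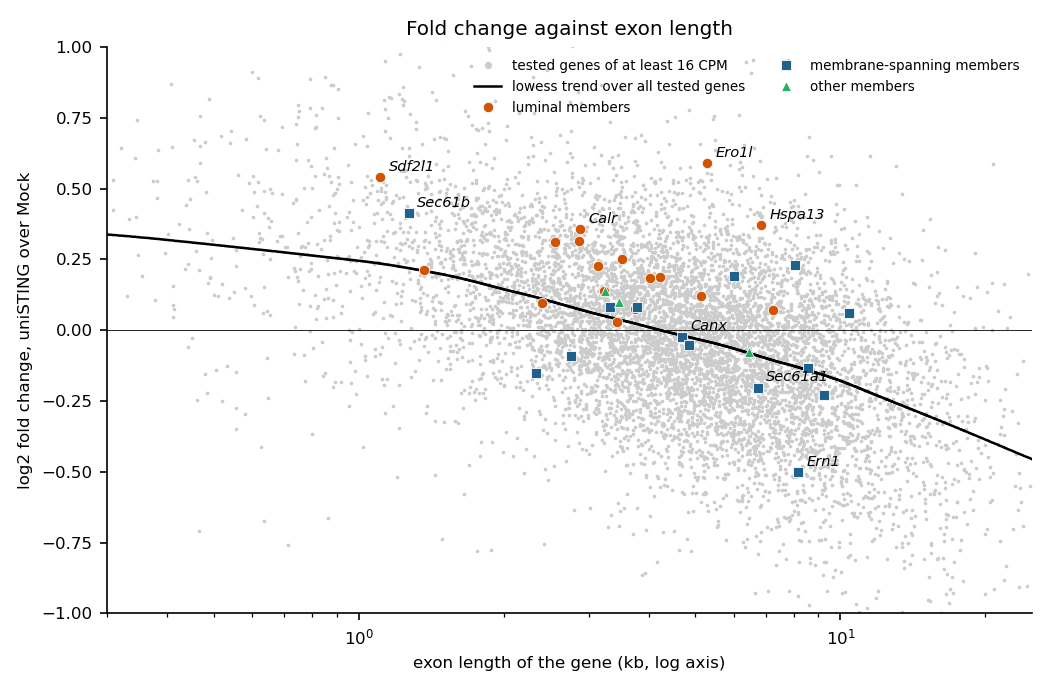
Log2 fold change of uniSTING over Mock against exon length (log axis, kb) for 7891 genes of at least 16 CPM (79 more lie outside the axes), with the lowess trend and the 34 genes drawn over it. Ero1l and Hspa13 lie well above the trend and Ern1 well below it.

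Of 150 other genes of the same pathways, 140 were tested, of which 56 rose, 31 fell and 53 did not pass, with a median log2 fold change of 0.06. The counts of each list below are read against the 24.9% higher and 25.4% lower of all genes tested. The genes named from each list are those with the smallest p. The translocation, signal peptidase and oligosaccharyltransferase list moved most to one side, with 18 of 26 tested genes up, 2 down and a median of 0.16. In it Sec61g, the γ subunit of the channel, averaged 96.7 ± 0.96 CPM in uniSTING and 51.3 ± 2.23 CPM in Mock (SD, n = 2 each; 1.89-fold, adjusted p = 2.05e-08 by edgeR). The signal peptidase gene Sec11c averaged 96.2 ± 4.66 CPM in uniSTING and 63.7 ± 0.17 CPM in Mock (1.52-fold, adjusted p = 5.73e-07 by edgeR), and the TRAP subunit gene Ssr3 averaged 827 ± 7.63 and 661 ± 10.5 CPM in uniSTING and Mock. Sec61g and Sec61b thus rose while Sec61a1 fell. Of 40 other folding factors tested, 14 rose and 6 fell (median 0.07), among them Selenof, a selenoprotein partner of the glycoprotein checkpoint (894 ± 0.298 CPM in uniSTING, 693 ± 2.55 CPM in Mock), and the proline isomerase gene Ppib (216 ± 4.64 CPM in uniSTING, 157 ± 1.25 CPM in Mock), both of which rose.

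Of 27 other ERAD genes, 8 rose and 8 fell, each near the share over all genes tested, with a median log2 fold change of -0.03. Vcp, the ATPase that pulls ERAD clients from the membrane, fell 1.34-fold (309 ± 7.43 CPM in uniSTING, 415 ± 25.3 CPM in Mock, adjusted p = 2.48e-06 by edgeR; -0.40 relative to exon length), whereas Selenok, a selenoprotein bound to derlins, rose (log2 fold change 0.57 ± 0.05, adjusted p = 1.75e-06; 0.42 relative to exon length). In the PERK, ATF4 and CHOP branch, 6 of 11 genes rose and 4 fell. Atf3, a stress-induced transcription factor, averaged 43.7 ± 1.52 CPM in uniSTING and 25.6 ± 1.37 CPM in Mock (1.7-fold higher, adjusted p = 5.07e-06 by edgeR). Trib3, a known target of ATF4 and CHOP, averaged 109 ± 0.899 CPM in uniSTING and 142 ± 4.59 CPM in Mock (1.3-fold lower, adjusted p = 2.64e-06 by edgeR), and Ppp1r15b, which lets translation resume by undoing eIF2α phosphorylation, fell (log2 fold change -0.26 ± 0.03). Relative to exon length Atf3, Trib3 and Ppp1r15b stood at 0.64, -0.51 and -0.21, so the genes named from this branch did not move one way.

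Of 11 other UPR regulators tested, 4 rose and 4 fell. Mbtps1, the Golgi protease that cuts ATF6, fell 1.24-fold (211 ± 3.04 CPM in uniSTING, 261 ± 5.35 CPM in Mock, adjusted p = 2.15e-06 by edgeR). Map3k5, the kinase ASK1 that acts downstream of IRE1, was 1.51-fold lower at 19.8 ± 0.976 CPM in uniSTING against 30 ± 2.59 CPM in Mock (adjusted p = 0.00011 by edgeR). Rtraf, a subunit of the tRNA ligase complex that also joins spliced Xbp1, rose (log2 fold change 0.45 ± 0.03, adjusted p = 2.38e-07). Relative to genes of like exon length Mbtps1, Map3k5 and Rtraf stood at -0.11, -0.53 and 0.30. Among 20 KDEL receptor and COPII export genes, 5 rose and 5 fell (median 0.02), which is the share over all genes tested, with Sar1b and Tmed2 up (log2 fold changes 0.54 and 0.33, or 0.32 and 0.23 relative to exon length) and the exit-site scaffold gene Sec16a down 1.55-fold (adjusted p = 6.35e-07). Of 5 ER-phagy receptor genes tested, Retreg1 rose (log2 fold change 0.25 ± 0.05) and Atl3 and Calcoco1 fell (-0.22 and -0.26). Atl3 was lost with the length trend removed (-0.03, adjusted p = 0.322), and Calcoco1 was lost without uniSTING replicate 1 (adjusted p = 0.211), Mock replicate 1 (0.0699) or Mock replicate 2 (0.101).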

How the data were processed

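RNA-seq counts from 2 uniSTING and 2 Mock libraries of 4T1 cells were used. As deposited per the file headers, the values are raw counts of read pairs over the exons of each gene. The authors made them with featureCounts 2.0.1, from uniquely mapped reads and the GRCm39 annotation of Ensembl 103, with no strand option, so overlapping genes on opposite strands share reads. Exon lengths are the authors' deposited lengths in bases. They are lengths of a gene's annotated exons, not of a single mRNA. Per the submitters' processing notes, reads were aligned with HISAT2 (version not given in the sources used here). Sequences of the delivered mRNAs are not in the annotation.

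The test was that of edgeR 4.0.16 (R 4.3.3; TMM, filterByExpr with a minimum count of 10 and a minimum total count of 15, glmQLFit, glmQLFTest), with Benjamini-Hochberg adjustment over 12972 genes at 0.05. The common coefficient of variation was 3.15%. CPM were computed as edgeR's cpm of the TMM-scaled library size. Standard errors were derived from the F statistic and are approximate. The length trend is a lowess of log2 fold change on log2 exon length (span 0.3). Intervals on counts cover counting error only. The same code was tested on simulated counts, where the share of false calls came out above the nominal one.

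Symbols matched 52093 of 53647 identifiers. Promoter windows came from RefSeq (GRCm38.p6) by symbol, and GC content from GENCODE transcripts by identifier for 99.9% of the genes tested. The members and all gene lists were chosen with earlier results of these data known. Named genes are all 35 members and up to 3 tested genes with the smallest p in each other list. Tusc3 was not analysed here, and 1 marker gene is not reported here. As alternatives, 12 settings were tried, namely size factors from DESeq2, no filter, a filter of 1 CPM in 2 libraries, a block for the replicate number, each library left out, length or length and GC trends removed as offsets, DESeq2 1.42.0 (which used a local dispersion fit) and limma-voom (limma 3.58.1). A 1.5-fold threshold was also applied to the counts.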

Additional observations from a re-analysis of the deposited data

How the results depend on the processing

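Of the 20 genes that rose, 11 kept the call and its direction in all 12 alternative settings (Hspa5, Hsp90b1, Hspa13, Sdf2l1, Manf, Calr, Pdia3, P4hb, Ero1l, Derl2 and Sec61b), as did Ern1 and Herpud1 of the 6 that fell. Directions turned without Mock replicate 2 for Sil1 (-0.10, in a range over the left-out libraries up to 0.14), without uniSTING replicate 2 for Wfs1 (-0.06, in a range up to 0.19), with the length trend removed for Sil1 (-0.01), Pdia4 (-0.02), Edem1 (0.01) and Sel1l (0.01), and with length and GC trends removed for Pdia4 (-0.03) and Syvn1 (0.05). None of these turned values passed the test. With DESeq2, 11 of the 34 genes rose and 4 fell, against 2347 genes higher and 2591 lower in all. At a 1.5-fold threshold 1 of the 34 rose and 0 fell, against 673 genes higher and 586 lower over all genes tested. Leaving out 1 library gave 14 to 18 members higher (14 without Mock replicate 2) and 4 to 6 lower, 2585 to 3027 genes higher and 2702 to 3071 lower in all, and medians of 0.10 to 0.13, or 0.06 to 0.12 relative to exon length. A group left with 1 library is assumed there to vary like the other group. Members with low counts, such as Dnajb9, Wfs1, Eif2ak3 and Derl3, have the widest intervals.

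With the replicate number as a block, 3374 genes were higher and 3403 lower, and 20 members were higher and 6 lower, with no member's call changed. The labels do not say that the numbers pair the libraries. Deviations of same-numbered libraries correlated at r = 0.531 and rho = 0.00868 over 7970 genes, with only 2 pairs.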
